A study of Drosophila melanogaster with 5 samples.

Results

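The gain-of-function EGFR stock was compared with a pair of loss-of-function stocks of the Notch pathway, E(spl) and Su(H), in blood cells of Drosophila melanogaster. Values are log2 levels, so a difference of 1 is 2-fold. For each probe set, a group of oligonucleotides that reads 1 transcript region, the mean of the E(spl) and Su(H) levels was subtracted from the EGFR level. Probe sets were kept where any of these 3 levels reached 4.5, which retained 10078 of the 18769 that are not manufacturer controls, and 8203 of 11982 named genes. The attention is on genes whose EGFR level lay outside the range of both Notch pathway arrays.

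The series held 5 Affymetrix arrays, 1 per stock, each hybridised with amplified RNA of hemocytes pooled from 200 to 300 larvae of the last instar. The EGFR stock was Bloomington stock BL1564, for which the labels give no allele. The E(spl) stock was E(spl)rvl, Bloomington stock BL199, and the Su(H) stock was Su(H)l(417), Bloomington stock BL417. The remaining arrays came from the control strain W1118 and from spen(GE10359), a loss-of-function line with a P-element in the spen gene, and their levels are printed beside the others as a reference. Whether larvae were homozygous, their sex and their genetic background are not given in the labels, and the labels describe no treatment. With 1 pool and 1 array per stock there was no replicate and no test, so no difference could be set against the spread between larval pools, and higher and lower describe these arrays only. In pooled cells, fewer cells of a type and less RNA per cell cannot be told apart.

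The epidermal growth factor receptor is a receptor tyrosine kinase that binds ligands such as Spitz and signals through Ras and the MAP kinase cascade. Notch is a receptor whose cleaved intracellular part enters the nucleus and acts with the DNA-binding protein Su(H), and genes of the Enhancer of split complex are among its best known targets. In the larval blood, Notch signalling is required for crystal cells, which carry the prophenoloxidases used in melanization, and Ras signalling drives hemocyte proliferation. Most circulating hemocytes are plasmatocytes, which engulf particles.

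The labels could be checked only in part. Egfr itself was at 4.41 on the EGFR array, 3.89 on E(spl), 4.17 on Su(H), 4.12 on the control and 4.30 on spen. These levels lay below 4.5 on all 5 arrays, so the receptor's transcript carried no information on the stock. No probe set is named for Su(H), N, Dl or E(spl)m8-HLH in the annotation used here. The tissue label could be checked, since the plasmatocyte genes Hml, NimC1 and eater stood between 13.33 and 14.38 on the 3 arrays compared. The 3' probe sets of actin, eIF-4a and GAPDH exceeded the middle ones by a mean of 1.84 on the EGFR array, 2.10 on E(spl) and 2.51 on Su(H). This measure of RNA degradation and amplification length was lowest on the EGFR array among the 3. Taken against the 5' probe sets instead, the excess for EGFR was 7.67, between that of E(spl) (7.48) and that of Su(H) (8.10). The spike-in control probe sets had a median of 9.05 for EGFR, lowest of the 5 arrays, while the Notch pathway pair stood at 9.68 and 9.72. The part of these measures in the differences was not tested. The highest Bacillus control probe set, a bacterial sequence absent from fly RNA and used as the background level, was at 4.40 on the EGFR array and at 4.33 and 4.28 on the E(spl) and Su(H) arrays. On the control and spen arrays this background level was 4.33 and 4.78. Where the dimmer level lay at or below it, a difference is given as a bound, written as at least.

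The EGFR level was above both Notch pathway arrays in 4142 probe sets, below both in 3497 and within their range in 2439. It was higher than both by 2-fold in 408 probe sets (4.05%) and lower than both by 2-fold in 238 (2.36%), together 6.41%. Against the mean of the pair, 614 were higher (6.09%) and 475 lower (4.71%). A 4-fold distance from both arrays was reached by 36 higher and 46 lower probe sets. With every level raised to the background level of its array, 383 were higher and 222 lower than both by 2-fold. The median difference over all members was 0.03. The median absolute difference was 0.33 between EGFR and E(spl) and 0.32 between EGFR and Su(H), and it was 0.23 between the Notch pathway arrays themselves. Counted the same way, E(spl) was beyond the other two with 150 higher (1.49%) and 112 lower (1.11%), and Su(H) with 220 higher (2.18%) and 64 lower (0.635%). More probe sets therefore set the EGFR array apart in each direction than set apart either Notch pathway array, as a description of 3 arrays.

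**Figure D1:**
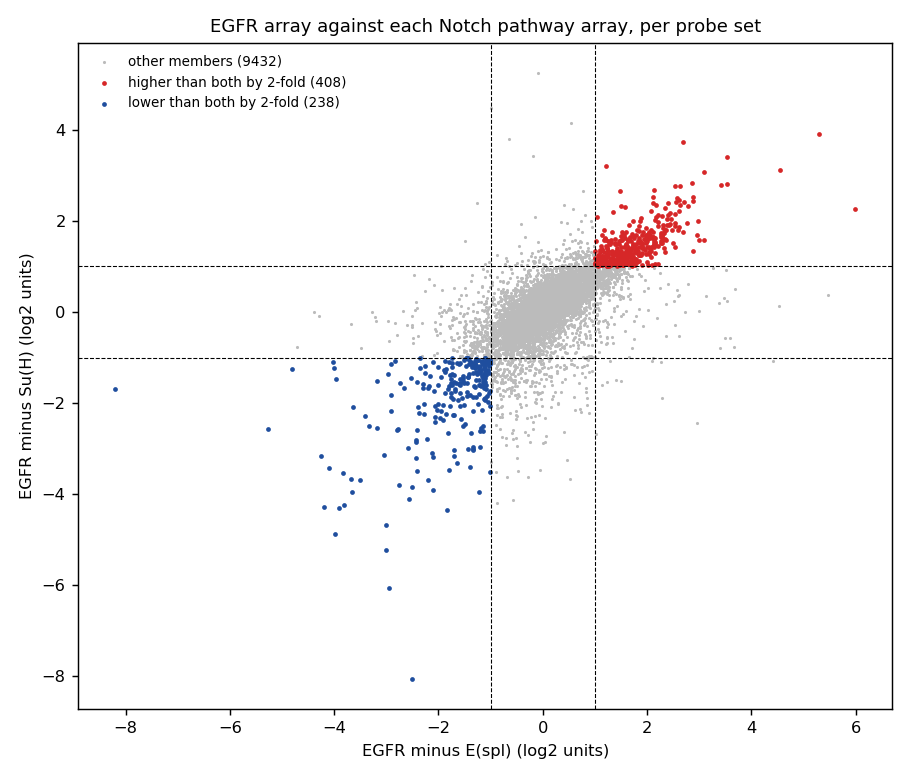
Difference of the EGFR level from the E(spl) level (horizontal axis, log2 units) and from the Su(H) level (vertical axis, log2 units) for each of the 10078 probe sets. The 408 red points were higher and the 238 blue points lower than both Notch pathway arrays by 2-fold (dashed lines), and most points lie along the diagonal because both axes subtract from the same EGFR array.

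The higher and lower sets differed in their level. Of probe sets whose highest level lay between 6 and 8, 9.55% were higher and 3.87% lower, while between 10 and 12 these shares were 1.69% and 2.76%. The 408 higher probe sets had a median level of 6.97 on the EGFR array, 5.16 on E(spl), 5.54 on Su(H), 7.62 on the control and 5.40 on spen. For this set the control array, which took no part in the choice, was the highest of the 5 and spen lay close to the Notch pathway arrays. The 238 lower probe sets had medians of 6.13, 8.04, 8.13, 7.43 and 6.76 in the same order of arrays, with EGFR the lowest. Where the pair disagreed, 1 array alone set the range, so each gene is given with its own levels below.

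Among genes, each taken as the mean of its probe sets, 353 of 8203 (4.30%) were higher and 189 (2.30%) lower than both by 2-fold. The EGFR level was above both by any size in 3445 of the 8203 genes and below both in 2804 (34.2%). These shares are the background for the gene groups that follow.

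The largest higher gene by the smaller of its distances was salto, at 8.99 on EGFR, 5.46 on E(spl), 5.59 on Su(H), 8.81 on the control and 5.25 on spen. It was 10.6-fold above the nearer Notch pathway array, and the control lay close to EGFR. sand, which encodes the potassium channel sandman, was at 8.94, 4.40, 5.82, 7.26 and 5.03 in the same order, 8.73-fold above the nearer array. Here EGFR was the highest of the 5 arrays. yin, an oligopeptide transporter gene, stood at 9.16, 6.46, 5.42, 8.53 and 7.99, with Su(H) the lowest array, and was 6.48-fold above E(spl).

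A different pattern was seen for cno, which encodes canoe, a scaffold that links adherens junctions to actin. It stood at 8.31 on EGFR and between 5.55 and 6.01 on the 4 other arrays, 6.24-fold above the nearer Notch pathway array. Ilp7, an insulin-like peptide gene, was likewise high on the EGFR array alone, at 6.62 against 3.48 to 3.54 on the others. Both Notch pathway levels were below background, so the difference was at least 4.87-fold. Damm, a caspase gene, was at 6.44 on EGFR, 4.74 on Su(H), 3.47 on E(spl), 3.43 on the control and 3.51 on spen, 3.24-fold above Su(H). EGFR was the highest of the 5 arrays for each of these 3 genes.

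For mthl8, a methuselah-like receptor gene, the EGFR level of 6.55 was at least 4.65-fold above the Notch pathway arrays, which were below background at 3.69 and 3.71. The control (6.84) and spen (6.03) were near EGFR, and the other probe set of mthl8 was also higher, by 2.41. CG14642 was at 12.75 on EGFR against 9.86, 10.32, 11.09 and 11.46, but its other probe set lay 0.43 below the nearer Notch pathway array. The probe sets of CG14642 therefore disagreed in sign. CG3927 stood at 9.14 on EGFR and 9.09 on the control, against 6.53 to 6.89 on the other 3 arrays. cocoon was at 7.88 on EGFR and 8.12 on the control, against 4.35 to 5.11 on the others. CG10013 (6.67 on EGFR, 2.98-fold above Su(H)) and CG11929 (6.64, 4.14-fold) had an E(spl) level below background and a control level, at 6.43 and 6.55, near that of EGFR.

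**Figure D2:**
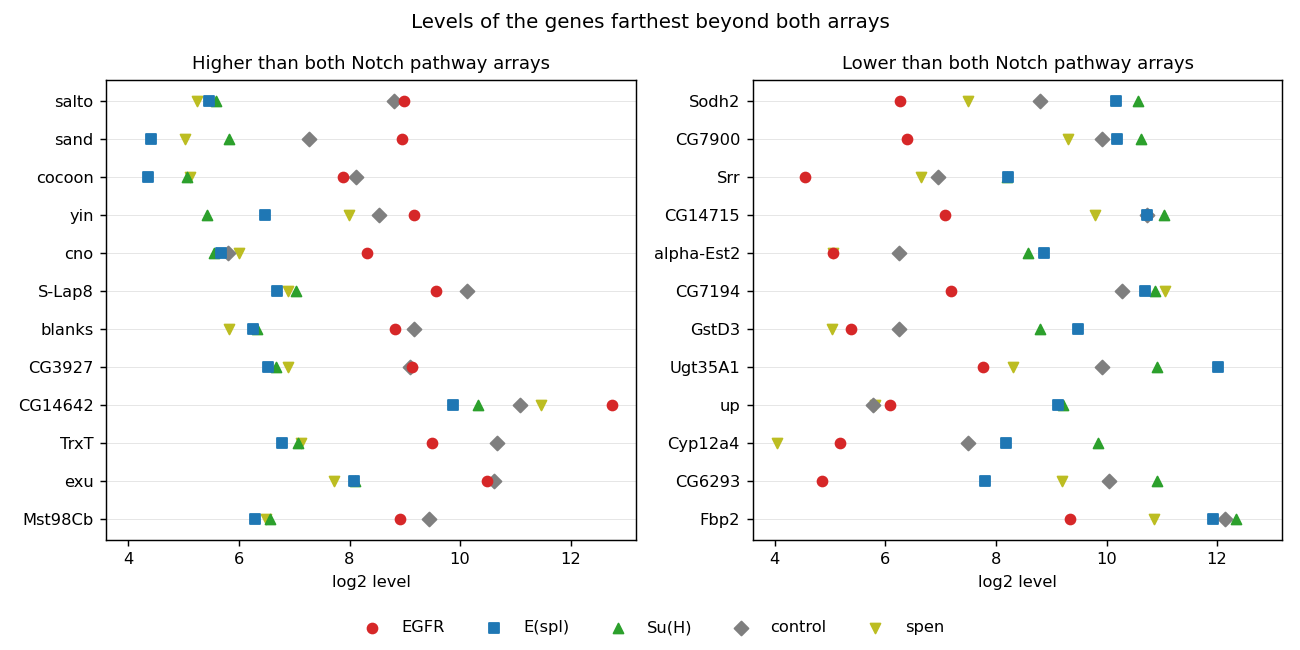
Log2 levels on the 5 arrays (horizontal axis) of the 12 genes farthest above (left) and the 12 farthest below (right) both Notch pathway arrays among those with all 3 levels above background. Each symbol is 1 array; in the left panel the control lies near EGFR for salto, cocoon, CG3927 and exu and near the Notch pathway arrays for cno, and in the right panel EGFR is the lowest of the 5 arrays for Sodh2, CG7900, Srr and CG14715.

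Genes of the male germ line made up several of the most distant higher genes. blanks, which encodes a double-stranded RNA-binding protein needed for spermatid development, was at 8.83 on EGFR, 6.25 on E(spl), 6.33 on Su(H), 9.17 on the control and 5.82 on spen. TrxT, a testis thioredoxin gene, was at 9.49, 6.78, 7.06, 10.67 and 7.11. S-Lap8, a sperm leucyl aminopeptidase gene, was at 9.57, 6.68, 7.03, 10.12 and 6.89. In all of these the control was the highest array, EGFR came next, and the Notch pathway and spen arrays lay together, so that EGFR exceeded the nearer Notch pathway array by 5.64-fold, 5.37-fold and 5.80-fold. exu, whose product localises mRNA in the germ line, was at 10.49 on EGFR and 10.62 on the control against 7.72 to 8.10 elsewhere, and its other probe set was only 0.19 above the nearer array.

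The list of germ line and testis genes had 22 of its 26 named genes above the level limit. Of these, 7 were higher than both by 2-fold (31.8%, against 4.30% of all genes) and none was lower, 19 were above both by any size and 1 was below. Their median difference from the mean of the pair was 1.00, against 0.04 over all genes, and 0.91 with every level raised to background. The list's median levels were 6.71 on EGFR, 5.41 on E(spl), 5.95 on Su(H), 6.93 on the control and 4.82 on spen. The log2 of the summed linear levels was 12.10, 10.65, 11.16, 13.04 and 10.52. EGFR thus stood between the control and the Notch pathway arrays in this list.

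Mst98Cb, which encodes a sperm tail protein, had the largest difference of the list, at 8.92 on EGFR against 6.29 on E(spl), 6.56 on Su(H), 9.45 on the control and 6.49 on spen. can and sa encode testis forms of TATA-box-binding protein-associated factors. can was at 6.62, 4.24, 4.57, 7.07 and 3.90, 4.13-fold above Su(H), and sa at 5.23, 3.72, 3.65, 5.39 and 3.98. Both Notch pathway levels of sa were below background, so its difference was at least 1.86-fold and no longer counted at 2-fold once bounded, which left 6 genes of the list. ocn stood at 6.95 on EGFR, 5.37 and 5.33 on the Notch pathway arrays, 8.57 on the control and 4.56 on spen. betaTub85D, the testis β-tubulin gene, was at 10.25, 8.03, 9.20, 11.48 and 8.57, so here the Notch pathway arrays differed from each other by more than EGFR differed from Su(H).

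Not all germ line genes followed. bam, a gene of germ cell differentiation, was at 7.56 on EGFR against 7.70 and 6.36 on the Notch pathway arrays, and at 4.59 and 4.70 on the control and spen. The cell cycle phosphatase gene twe was between 5.80 and 6.32 on all 5 arrays. vas, piwi and tj, which mark germ cells and somatic gonad cells, were below 4.5 on all 5 arrays, and topi, a meiotic arrest gene, was so on the 3 arrays compared. How many larvae of each sex entered a pool is not given in the labels, and its part in these levels was not tested.

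Further genes of the same kind were found by grouping genes on their symbols, which was done after the values were seen. For these families each gene was counted by its probe set farthest beyond both arrays and not by its mean. Counted by any probe set, 364 of the 8203 genes were higher and 208 lower. All 4 tested S-Lap genes were higher than both by 2-fold, among them S-Lap7 (9.94 on EGFR, 7.86 and 8.14 on the Notch pathway arrays) and S-Lap2 (9.79, 7.45 and 8.20). Of 14 Mst genes 6 were higher and none lower. Of 40 eIF genes, which encode translation initiation factors, 5 were higher, with eIF4E7 at 6.78, 5.01 and 5.46 and at 8.18 on the control. The other 4 were eIF3f2, eIF4E3, eIF4E5 and eIF4H2. For these 5 the control was again the highest array, with levels between 7.12 and 9.99.

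Paralogues within large complexes gave the 2-fold calls of otherwise close lists. Among 35 proteasome genes 2 were higher (5.71%, against 4.30% of all genes), Rpt3R and Rpt4R, which encode variants of base ATPases. Rpt3R was at 7.99 on EGFR, 6.01 on E(spl), 6.31 on Su(H), 8.04 on the control and 5.46 on spen. Of 64 oxidative phosphorylation genes 1 was higher (1.56%). It was Cyt-c1L, at 8.15 against 7.07 and 7.06, with 8.89 on the control and 6.38 on spen. Of 24 vacuolar ATPase genes Vha68-3 was higher (4.17%), at 7.24 against 5.02 and 5.26, with 8.26 on the control and 5.61 on spen. Vha100-5 was lower (4.17%, against 2.30% of all genes), at 4.52 against 5.67 and 6.06. The higher shares of these lists were thus near or below that of all genes. Hsc70-2, of the heat shock list, was at 7.16, 4.87, 5.52, 7.92 and 4.95. In each of these 4 higher genes with levels given, the control was the highest array and spen lay below EGFR.

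**Figure D3:**
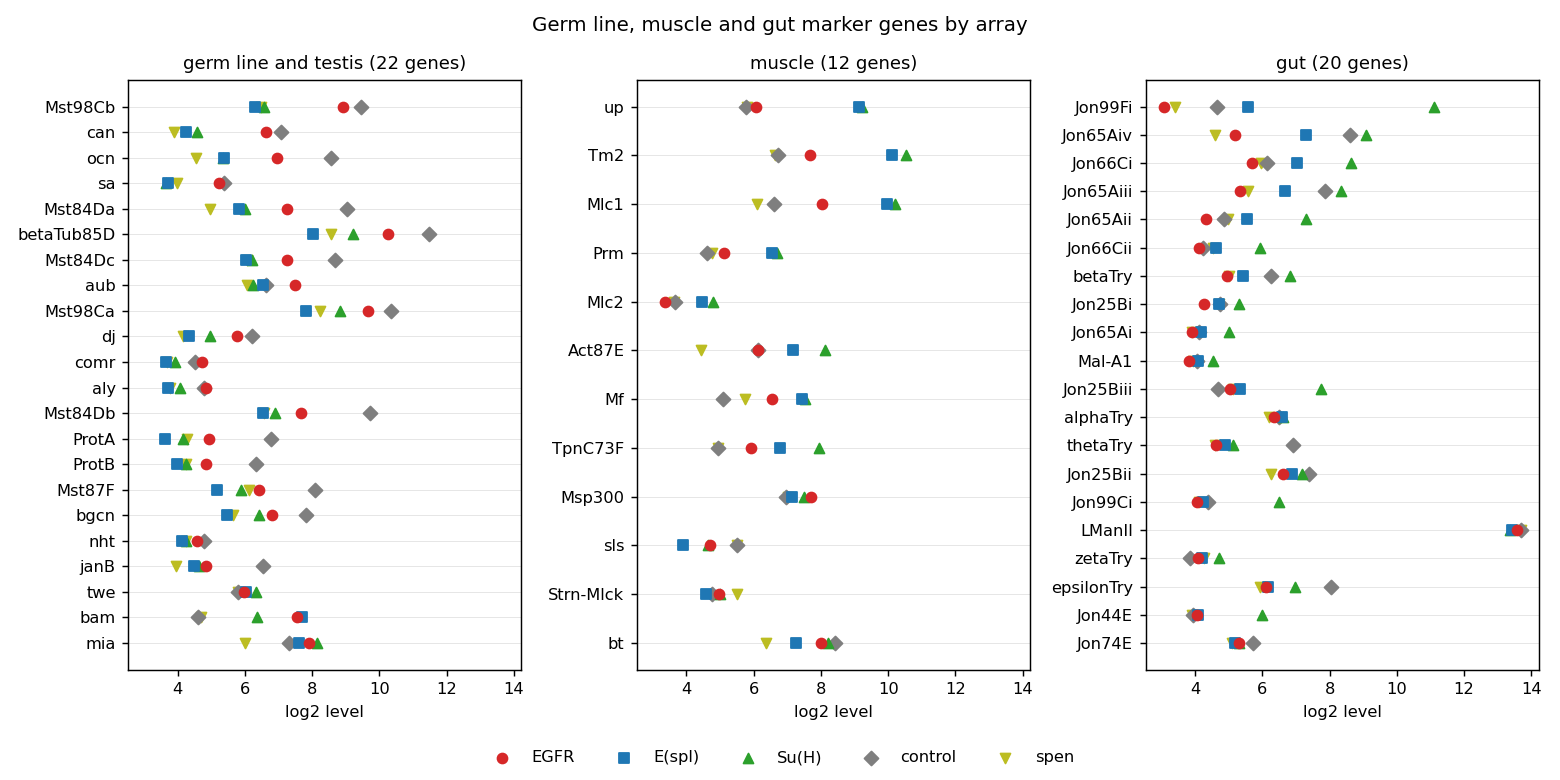
Log2 levels on the 5 arrays (horizontal axis) of all tested genes of the germ line and testis, muscle and gut lists, each ordered by the EGFR distance from both Notch pathway arrays. Most germ line and testis genes have EGFR (red) between the Notch pathway arrays and the control, up, Tm2 and Mlc1 have both Notch pathway arrays above the other 3, and most Jonah genes have the highest level on Su(H).

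On the lower side, the farthest named gene with all 3 levels above background was Sodh2, a sorbitol dehydrogenase gene. It was at 6.27 on EGFR, 10.17 on E(spl), 10.58 on Su(H), 8.80 on the control and 7.49 on spen, 14.9-fold below E(spl). Srr, which encodes serine racemase, was at 4.55 on EGFR, near background, against 8.23 and 8.21, with 6.96 on the control and 6.64 on spen, 12.6-fold below. Gbs-70E, a glycogen-binding subunit gene of protein phosphatase, was below background on EGFR (4.27) and at 6.39 and 7.36 on the Notch pathway arrays, at least 3.96-fold lower. EGFR was the lowest of the 5 arrays for Sodh2 and Srr, and the spen level of Gbs-70E was below background too.

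The 4 detoxification genes farthest from both arrays had their highest levels on the Notch pathway arrays. GstD3, a glutathione transferase gene, was at 5.38 on EGFR, 9.48 on E(spl), 8.79 on Su(H), 6.24 on the control and 5.03 on spen, 10.7-fold below Su(H). Ugt35A1, a UDP-glycosyltransferase gene, was at 7.76, 12.01, 10.91, 9.93 and 8.30, 8.91-fold below Su(H). alpha-Est2, a carboxylesterase gene, was at 5.05, 8.87, 8.59, 6.25 and 5.05, 11.6-fold below Su(H). In GstD3 and alpha-Est2, EGFR was thus close to spen. The cytochrome P450 gene Cyp12a4 was at 5.18, 8.18, 9.85, 7.50 and 4.03, 8.02-fold below E(spl).

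Taken as a list, redox defence and detoxification had 68 of 84 named genes above the limit, of which 8 were lower (against 2.30% of all genes) and 4 higher (against 4.30%) than both by 2-fold. All 8 lower genes were among the 55 cytochrome P450 and transferase genes, where 27 were below both by any size and 10 above. alpha-Est2 is not in this list. Besides GstD3, Ugt35A1 and Cyp12a4, the lower genes were Cyp4d1 (5.58 on EGFR, 2.41 below the nearer array), Cyp6a23 (9.52, 11.02 and 11.99), Cyp6w1 (7.19, 10.09 and 8.33), Cyp4ac1 (8.82, 9.98 and 9.91) and Cyp6a22, whose EGFR level of 3.77 was below background. With levels raised to background Cyp6a22 no longer counted, which left 7. Of the 13 redox genes, 7 were above both and 4 below. Cat, the catalase gene, was among the higher ones, at 11.38 on EGFR, 9.99 on E(spl), 10.11 on Su(H), 12.14 on the control and 12.86 on spen. GstO1 (6.07, against 4.97 and 4.86) and Cyp6g2 (5.83, against 4.35 and 4.78) were the higher members outside the redox genes. The median difference was −0.16 over the cytochrome P450 and transferase genes, 0.49 over the redox genes and −0.10 over the whole list, so the roles differed in sign.

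Other lower genes had no member in these lists. CG7900 was at 6.39 on EGFR, 10.19 on E(spl), 10.62 on Su(H), 9.91 on the control and 9.31 on spen, 14.0-fold below E(spl). CG14715 was at 7.08, 10.73, 11.04, 10.73 and 9.78, and CG7194 at 7.19, 10.69, 10.89, 10.29 and 11.06. In these 3 genes the 4 other arrays lay closer to each other than to EGFR. CG6293 was at 4.85 on EGFR and 7.80 on E(spl), against 10.92 on Su(H), 10.04 on the control and 9.20 on spen.

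The lower gene with the brightest counterpart among those at background on EGFR was CG32284, at 3.95 against 7.94 and 8.83, at least 11.6-fold lower. Amnionless, a gene named for an endocytic receptor subunit, was at 4.05 against 6.47 and 6.86, at least 4.20-fold lower, and was at 4.54 on the control. CCHa2, a neuropeptide gene, was at 3.42 against 5.85 and 6.63, at least 2.72-fold lower. For sowah, at 3.43 against 5.95 and 7.28, the other probe set lay within the range of the pair. 

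Several muscle genes were lower than both arrays, in a list with 12 of 15 named genes above the limit. Of these, 6 were lower than both by 2-fold (50.0%, against 2.30% of all genes), none was higher, 8 were below both and 2 above. The median difference was −1.37, and −1.20 with levels raised to background. Median levels were 6.10 on EGFR, 7.15 on E(spl), 7.74 on Su(H), 5.65 on the control and 5.63 on spen. The log2 of the summed linear levels was 10.37, 11.79, 12.17, 9.92 and 9.39, so EGFR was nearer the control than the Notch pathway arrays were.

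up, which encodes troponin T, was at 6.08 on EGFR, 9.12 on E(spl), 9.22 on Su(H), 5.78 on the control and 5.81 on spen. Tm2, a tropomyosin gene, was at 7.66, 10.10, 10.52, 6.71 and 6.62. Mlc1, a myosin light chain gene, was at 8.03, 9.98, 10.20, 6.60 and 6.11. The Notch pathway arrays lay close together in all 3, and EGFR was 8.24-fold, 5.43-fold and 3.86-fold below the nearer one. Prm, the paramyosin gene, Mlc2 and Act87E completed the lower ones, with Mlc2 below background on EGFR at 3.35 and only slightly above it on E(spl) at 4.45. With levels raised to background Mlc2 no longer counted, which left 5. The large sarcomere genes sls, bt and Strn-Mlck and the nuclear anchor gene Msp300 did not reach 2-fold. Act88F, fln and TpnC41C were below 4.5 on all 5 arrays.

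Several genes of the gut list, mostly serine proteases of the Jonah and trypsin families, were lower, with a gap between the Notch pathway arrays. Of 20 tested genes of 22, 5 were lower by 2-fold (against 2.30% of all genes) and none higher (against 4.30%). Of these 20, 18 were below both (against 34.2% of all genes) and 1 above (where 3445 of all 8203 genes were). With every level raised to background, 13 were below both, since several genes exceeded background on Su(H) alone, and the 5 remained lower by 2-fold. The median difference was −0.86 and −0.68 with levels raised, but it was −0.28 against E(spl) alone and −1.46 against Su(H) alone. Median levels were 4.79 on EGFR, 5.37 on E(spl), 6.70 on Su(H), 5.28 on the control and 4.84 on spen. The log2 of the summed linear levels was 13.64, 13.55, 13.89, 13.86 and 13.75, with EGFR above E(spl), and LManII, a lysosomal mannosidase gene at 13.36 to 13.69 on all 5 arrays, made up most of it. Jon65Aiv was at 5.19, 7.29, 9.09, 8.60 and 4.59, and Jon99Fi at 3.06, 5.57, 11.11, 4.66 and 3.40. Su(H) was the highest array in both genes, and Jon99Fi was at least 2.24-fold below E(spl). The other 3 lower genes were Jon66Ci, Jon65Aiii and Jon65Aii. The part of muscle and gut tissue carried over with the hemocytes was not tested.

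Fat body genes included both directions. Of 14 tested, 3 were lower (21.4%, against 2.30% of all genes) and 1 higher (7.14%, against 4.30%). Fbp2, a fat body protein gene, was at 9.35 on EGFR, 11.93 on E(spl), 12.34 on Su(H), 12.15 on the control and 10.85 on spen, 5.99-fold below E(spl). apolpp, which encodes the main lipid carrier of the hemolymph, was at 9.60, 11.06, 11.36, 12.33 and 11.35, and Lpin, a lipin gene of lipid synthesis, at 7.64, 9.08, 9.08, 8.19 and 7.49. Apoltp, the lipid transfer particle gene, went the other way at 7.87 against 6.46 and 6.61. The list's median difference was −0.36. Of 15 salivary gland genes only 8 passed the level limit, with no 2-fold call. Of these 8, 7 were above both (87.5%, where 3445 of all 8203 genes were) and the median difference was 0.93. With no level limit the median fell to 0.09. The glue gene Sgs3 was at 8.85 on EGFR, 5.16 on E(spl), 8.36 on Su(H), 7.98 on the control and 12.13 on spen.

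The named pathways held no 2-fold call. At the shares of all genes, 4.30% higher and 2.30% lower, lists of this size would hold few, so this absence says little about them. None of 24 tested EGFR pathway genes of 25 was beyond both Notch pathway arrays by 2-fold in either direction. Of these 24, 7 were above both (29.2%) and 11 below (45.8%), and the median difference was −0.08. Of all 8203 genes, 3445 were above both and 2804 (34.2%) below. Among ligands, spi was at 10.39 on EGFR, 10.76 on E(spl), 10.17 on Su(H), 10.93 on the control and 10.71 on spen, within the range of the pair. Of the adaptors, drk, which links the receptor to Ras activation, was at 11.11 against 11.72 and 11.63, and Shc at 11.19 against 10.76 and 10.67. Dsor1, the MAP kinase kinase gene, had the largest difference of the list, at 8.65 against 8.02 and 7.85, with 8.68 on the control and 9.21 on spen.

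Feedback inhibitors of the receptor did not stand out. sty (sprouty) was at 10.72 on EGFR against 10.99 and 11.06, and kek1 at 7.97, 7.75 and 7.93. aos, which encodes the secreted inhibitor argos, was at 4.69 on the EGFR array and 4.47 on that of Su(H), near background, and at 5.88 on E(spl). The nuclear repressor genes aop and cic were below both arrays by 0.06 and 0.33. Transcript levels of these genes do not measure signalling through the receptor.

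None of the 21 tested Notch pathway genes was beyond both arrays by 2-fold. Of these, 4 were above both (19.0%) and 11 below (52.4%, against 34.2% of all genes), with a median difference of −0.11. Of the 8 nuclear factors, 7 were below both, by at most 0.52 (Nle, at 9.05 against 9.57 and 9.64). gro, the corepressor groucho, was at 8.26 against 8.77 and 8.53, and mam, the coactivator mastermind, at 6.18 against 6.19 and 6.38. The glycosyltransferase gene fng, whose product modifies the receptor, was at 5.07, 5.38 and 5.47 on the 3 arrays and at 7.03 and 10.37 on the control and spen.

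Of the E(spl) complex and Bearded family, together with the related repressors, 8 of 16 named genes passed the level limit and none was beyond both arrays by 2-fold. E(spl)m3-HLH was at 9.27 on EGFR, 7.76 on E(spl), 8.92 on Su(H), 7.24 on the control and 6.16 on spen, highest on EGFR and 0.35 above Su(H). E(spl)mbeta-HLH was at 10.27, 10.24 and 10.30, so the 3 stocks could not be separated by it. hry, the hairy repressor gene, was at 12.45, 12.82 and 12.45.

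**Figure D4:**
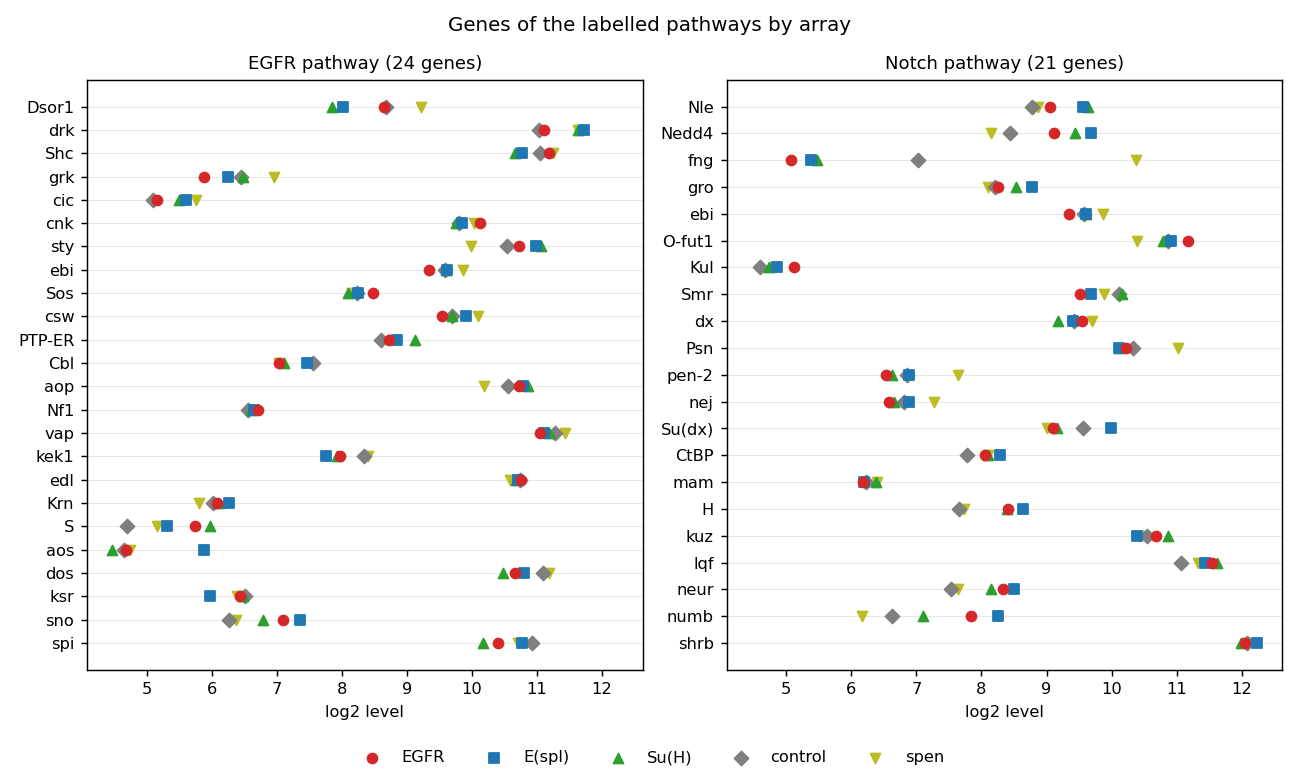
Log2 levels on the 5 arrays (horizontal axis) of all tested genes of the EGFR pathway (left, 24 genes) and the Notch pathway (right, 21 genes). The EGFR, E(spl) and Su(H) symbols lie close together in nearly every gene, and none of the genes is beyond both Notch pathway arrays by 2-fold.

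Blood cell markers were close. No plasmatocyte gene of 15 was beyond both by 2-fold, and the median difference was 0.06. Pxn, a peroxidasin gene, was at 13.76 on EGFR against 13.45 and 13.62, and Hml, the hemolectin gene, at 14.38, 14.29 and 14.36. NimC2, a Nimrod receptor gene, varied more, at 5.40, 4.18 and 6.07, with 8.10 on the control and 10.48 on spen.

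Of 9 crystal cell genes 1 was lower by 2-fold (11.1%, against 2.30% of all genes). It was CG17109, at 11.90 on EGFR, 13.32 on E(spl), 12.91 on Su(H), 12.95 on the control and 7.44 on spen. Its distance from Su(H) was 2.01-fold, just past the limit. The prophenoloxidase genes PPO1 and PPO2 hardly varied across the 3 arrays, at 14.57, 14.54 and 14.53 for PPO1 and 14.55, 14.44 and 14.53 for PPO2. lz, the RUNX factor of this lineage, was at 7.43, 6.90 and 5.72, against 3.89 and 3.19 on the control and spen, which were below background. lz was therefore highest on EGFR, 0.53 above E(spl), though the pair differed from each other by more than that.

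Lamellocyte genes, 16 in number, had no 2-fold call and a median difference of −0.04. Su(H) was the highest array for atilla, a surface marker of these cells, at 8.58 on EGFR, 8.23 on E(spl), 10.34 on Su(H), 6.26 on the control and 6.58 on spen. ItgaPS4, an integrin gene, was at 8.56, 9.35, 11.31, 7.69 and 8.48. Against Su(H) alone the list's median difference was −0.69, and the Notch pathway arrays differed from each other in this list.

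Genes of DNA replication and mitosis had no 2-fold call among 26 and 27 genes, where 4.30% of all genes were higher and 2.30% lower. EGFR was above both in 13 replication genes (50.0%) and 15 mitosis genes (55.6%), where 3445 of all 8203 genes were. It was below both in 26.9% and 25.9%, against 34.2% of all genes. The median differences were 0.10 for replication and 0.22 for mitosis. The replication helicase gene dpa was at 8.65 on EGFR, 9.54 on E(spl), 9.64 on Su(H), 8.29 on the control and 7.74 on spen. dup, a licensing factor gene, was at 9.84, 9.13, 9.28, 7.73 and 6.98, and the mitotic motor gene ncd at 10.07, 9.26, 9.40, 8.47 and 7.73. The Notch pathway arrays lay close together in all 3 genes, with EGFR below them for dpa and above them for the others.

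Signalling and immune lists held single genes beyond both arrays. wgn, a tumour necrosis factor receptor gene, was at 4.81 on EGFR, 7.99 on E(spl), 7.35 on Su(H), 7.14 on the control and 7.76 on spen, 5.82-fold below Su(H) and lowest of the 5. Its ligand gene egr was at 8.96 against 8.26 and 7.73. Pvf2, a growth factor gene of the PDGF and VEGF family, was at 7.85, 9.60, 9.73, 7.97 and 6.55, 3.37-fold below E(spl), so EGFR matched the control and the Notch pathway arrays were high. These were 2 of 21 genes of the JNK and wound list (9.52%, against 2.30% of all genes), with none higher.

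Of 24 Toll and Imd genes 2 were lower (8.33%, against 2.30% of all genes) and none was higher. IKKbeta, a kinase gene of the Imd pathway, was at 6.12 on EGFR, 9.30 on E(spl), 7.63 on Su(H), 8.26 on the control and 8.53 on spen, and GNBP3, a recognition protein gene for fungi, at 4.59, 5.88, 5.81, 6.20 and 5.49. EGFR was the lowest array in both. The 6 antimicrobial peptide and lysozyme genes had no 2-fold call, although AttD, an attacin gene, ranged from 3.61 on Su(H) to 8.62 on the control.

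Of the class C scavenger receptor genes, a pair was lower and Sr-CI, the receptor for bacteria, was not. Sr-CIV was at 7.98 on EGFR, 11.62 on E(spl), 10.06 on Su(H), 9.31 on the control and 6.96 on spen, and Sr-CIII at 7.13, 9.96, 8.20, 6.44 and 5.48. Sr-CI was within the range of the pair, at 13.11 against 13.04 and 13.19. ninaD, a class B scavenger receptor gene of carotenoid uptake, was at 3.86, 12.06, 5.54, 3.51 and 3.55, high on E(spl) alone and at least 2.20-fold below Su(H) on EGFR. Dscam1, an immunoglobulin superfamily receptor gene, was higher, at 9.27 against 6.93 and 7.95, with 10.24 and 10.37 on the control and spen. In all, 3 genes of 22 in the list were lower by 2-fold (13.6%, against 2.30% of all genes) and 1 higher (4.55%, against 4.30%).

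Of 24 heat shock and chaperone genes 2 were higher (8.33%, against 4.30% of all genes) and none lower. They were Hsc70-2, given above, and Hsp26, a small heat shock protein gene, at 11.44 on EGFR, 10.31 on E(spl), 10.05 on Su(H), 11.21 on the control and 11.51 on spen. EGFR was above both in 19 of the 24 (79.2%, where 3445 of all 8203 genes were) and below both in 2, with a median difference of 0.36. Under the other scalings it was above both in 16 to 17. The 6 small and inducible genes had a median difference of 0.11, with 4 above both. For the 18 constitutive genes these values were 0.39 and 15. Hsp27 was also above both, at 13.33 on EGFR and 0.64 above the nearer Notch pathway array. Hsp60A, the mitochondrial chaperonin gene, was at 13.02, 12.15 and 12.15, with 11.86 and 12.01 on the control and spen. MtnB, a metallothionein gene, was at 8.81, 7.33, 6.15, 5.43 and 6.33, with EGFR the highest of the 5 arrays. Of 18 metal handling genes it was the 1 higher by 2-fold (5.56%, close to the 4.30% of all genes), and none was lower. The apoptosis list of 11 genes had 1 higher gene, Damm (9.09%, against 4.30% of all genes), and none lower.

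Among housekeeping complexes, the ribosomal protein, proteasome, oxidative phosphorylation and vacuolar ATPase lists leaned above both arrays by small differences. The lists also count paralogues. The gene farthest above both in each was RpS19b, Rpt3R, Cyt-c1L and Vha68-3, and the control was the highest array for all of them. EGFR was above both in 25 of 39 ribosomal protein genes (64.1%, where 3445 of all 8203 genes were) and below both in 3, with a median difference of 0.14. After loess scaling these counts were 18 and 6 with a median of 0.08, where 3189 of all 8198 genes were above both. EGFR was above both in 27 of 35 proteasome genes (median difference 0.26) and in 45 of 64 oxidative phosphorylation genes (0.23). These counts stayed at 26 to 27 and 40 to 42 under the 3 other scalings. Of 24 vacuolar ATPase genes 17 were above both (70.8%, median difference 0.21), and 14 were so under each of the other scalings. No ribosomal protein gene reached 2-fold. Of 69 mitochondrial ribosomal protein genes 30 were above both (43.5%), close to the share of all genes. Another 16 were below both (23.2%, against 34.2% of all genes) and none was beyond by 2-fold, with a median difference of 0.07.

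spen itself, the gene mutated in the remaining stock, was lower on EGFR than on both Notch pathway arrays, at 9.14 against 10.35 and 10.75, with 9.79 on the control and 4.90 on the spen array. It was the 1 lower gene of 11 in the dosage compensation and Sxl list (9.09%, against 2.30% of all genes). The clotting gene fon was at 7.43 on EGFR, 8.80 on E(spl), 10.09 on Su(H), 10.63 on the control and 9.50 on spen. The methyltransferase gene Gnmt was at 7.34, 8.44, 8.94, 7.33 and 4.62, and slgA, a proline oxidase gene, at 6.07, 7.82, 7.08, 6.14 and 5.48. EGFR matched the control in Gnmt and slgA, whereas it was the lowest array in fon. The lists of JAK/STAT, lectin, extracellular matrix, glycolysis, ecdysone response, lymph gland, epidermis, imaginal disc and nervous system genes held no gene beyond both arrays by 2-fold.

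**Figure D5:**
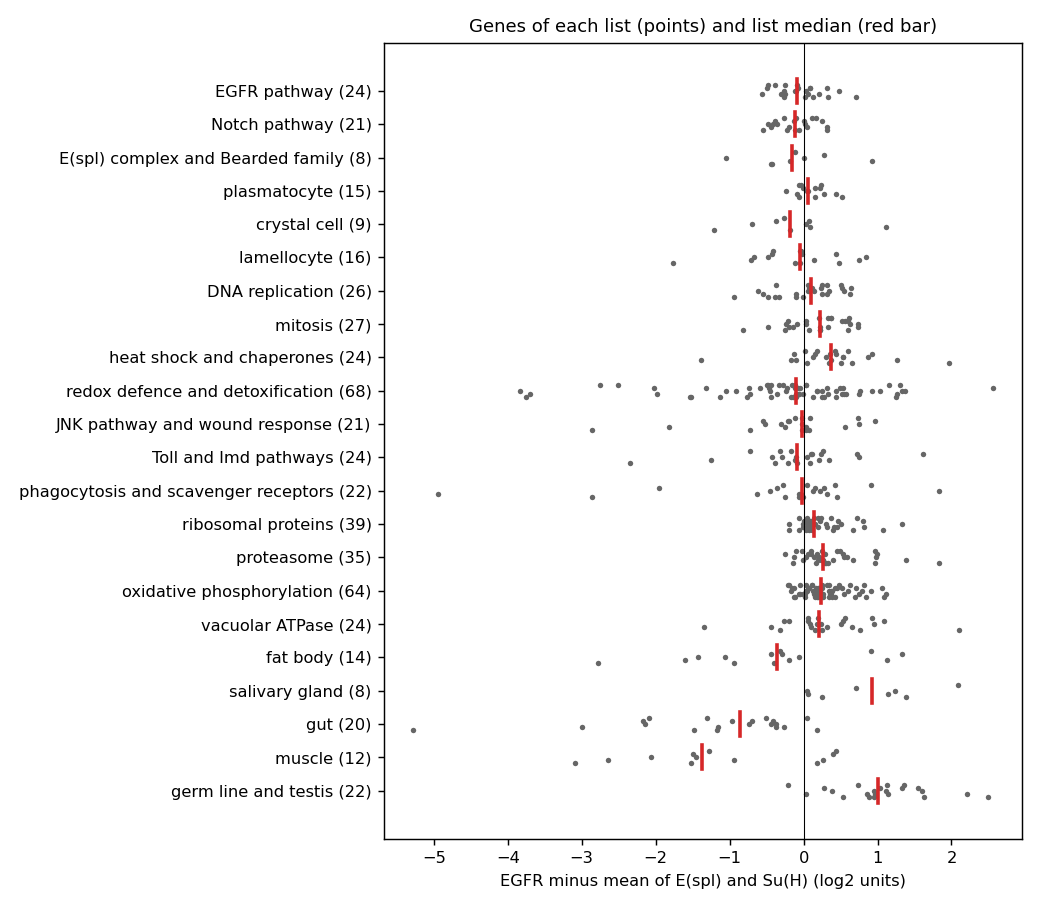
EGFR level minus the mean of the E(spl) and Su(H) levels (horizontal axis, log2 units) for each tested gene (grey points) of 22 lists, with the number of genes in brackets and the list median as a red bar. Medians range from −1.37 for muscle to 1.00 for germ line and testis, and the lists of the labelled pathways and of blood cell types lie near 0.

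Some genes called in the same direction lay next to each other in the genome. Of 346 higher genes with a known order, 8.38% had a neighbour also higher, against 4.44% of 8149 tested genes. For the 187 lower genes these shares were 7.49% and 2.90%. Runs of 3 consecutive tested genes were CG10513, CG10514 and CG11892 and Jon65Aiv, Jon65Aiii and Jon65Aii among the lower genes, and CG18449, CG2127 and CG8701 among the higher ones. The HMG-box genes tHMG1 (6.95 on EGFR, 5.32 and 5.86) and tHMG2 (6.59, 5.29 and 5.47) were such a higher pair. Neighbouring genes are often related by duplication and can share probe signal, and this was not tested.

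Agreement between probe sets of 1 gene limited how far single calls can be read. Among 367 genes with several passing probe sets, differences from the mean of the pair had a pooled SD of 0.54 within a gene. Of the 19 higher genes with several probe sets, 14 had all of the same sign and 3 had all beyond both arrays by 2-fold. For the 26 lower genes these counts were 15 and 2. CG1894 had 1 probe set higher (6.83 on EGFR, 4.54 and 4.72) and 1 lower (5.39, against 7.62 and 8.18). At the level limit, the nearest probe set outside was that of ric8a and the nearest inside that of CG42342, both at 4.5 after rounding.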

How the data were processed

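The authors deposited 1 table of log2 levels for 18952 probe sets on 5 arrays. Per the submitters' processing notes, RMA and GCOS were used; versions and settings are not given in the sources used here. RMA corrects background, quantile-normalises and summarises probes, which would remove a shift common to most genes. Per the labels' protocols, TRIzol RNA (1.0 to 1.3 µg per pool) was amplified with RiboAmp, a step that shortens transcripts towards the 3' end.

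From these log2 levels the 183 control probe sets were removed. The rule of the opening paragraph was applied with pandas 2.3.3 and numpy 2.4.6 in Python 3.11.15. A probe set counted as beyond both arrays if its EGFR level exceeded both, or lay below both, by at least 1. Genes were named from the platform annotation (8698 members with 1 gene, 280 with several, 1100 with none), and no symbol needed an update. The text names the 12 highest and 12 lowest genes above background, 6 per direction with a level at background (1 of the lower ones is not reported here), and up to 4 per list, with further members of the labelled pathways. Other members of a list and the symbol families were named after their values were seen. Members and lists were chosen with earlier results of these data known. Counting was tested on simulated data. Other level limits, fold sizes, scalings and references were tried.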

Additional observations from a re-analysis of the deposited data

How the results depend on the processing

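With 1 array per stock there was no test whose call could change. No paired analysis was possible because each group has 1 array. At 1.5-fold, 1030 probe sets were higher and 623 lower than both Notch pathway arrays, and 1465 and 1088 against their mean. At 4-fold these counts were 36 and 46, and 69 and 86; a larger fold leaves fewer by construction. Under the other level limits, scalings, the background floor and gene averaging, the counts beyond both arrays were 325 to 410 higher and 189 to 267 lower. The higher share of all calls was 63.2% as deposited and 57.7% after renewed quantile normalization, and the scalings moved the median difference from 0.03 to −0.01. Against E(spl) alone 770 were higher and 512 lower, and against Su(H) alone 572 and 561. Of list medians under these alternatives 320 stayed within the spread between probe sets, 6 moved further and 1 reversed: the Eig71E median became −0.017 with no level limit, where genes below it join the 1 gene above it (1.23 alone). The others that moved were muscle (−0.58) and salivary gland (0.09) with no level limit, gut at a level limit of 6 (−1.39) and against E(spl) or Su(H) alone (−0.28, −1.46), and lamellocyte against Su(H) alone (−0.69). For the 36 named genes, 17 values moved by more than this spread, 6 of them against E(spl) alone, 7 against Su(H) alone and 4 at the background floor; their direction follows from the choice of genes beyond both arrays. Levels near background, below about 4.4 or below 4.78 on the spen array, carry no order.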

Other observations

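Symbol families with more than 1 gene beyond both arrays in a direction, described after the values were seen, included the following. Each gene was counted by its farthest probe set, by which 364 of 8203 genes were higher and 208 lower. Carbonic anhydrase genes, whose products interconvert carbon dioxide and bicarbonate, had 3 lower and 1 higher of 8. CAH1 was at 5.55 on EGFR, 8.89 on E(spl), 8.05 on Su(H), 7.79 on the control and 7.85 on spen. CAH2 was at 8.69, 10.65, 11.01, 10.84 and 8.40, and CAH3 at 9.52, 10.74, 10.74, 10.30 and 10.30. CAH14 went the other way, at 6.14, 4.56, 3.84, 7.05 and 4.37, with the control the highest array. EGFR was the lowest array for CAH1 and CAH3.

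Heat shock protein genes had 2 higher of 8, Hsp26 and Hsp60C, a mitochondrial chaperonin paralogue at 9.28 on EGFR, 6.98 on E(spl), 7.76 on Su(H), 10.30 on the control and 7.47 on spen. Dnaaf genes, which encode assembly factors of ciliary dynein, had 2 higher of 4. Dnaaf6 was at 7.76 on EGFR, 5.49 on E(spl), 6.07 on Su(H), 8.75 on the control and 5.98 on spen. The tbrd genes, bromodomain genes of the testis, had 2 higher of 3, with tbrd-1 at 5.86, 4.20, 4.53, 6.06 and 4.32. Sorting nexin genes had 2 lower of 7, with Snx21 at 5.68, 6.90, 6.95, 5.59 and 6.81. Serpin genes had 2 lower of 12, with Spn47C at 4.44, 6.85, 5.98, 5.84 and 4.10. Of 245 families with at least 3 tested genes, 13 had at least 2 genes beyond both arrays in the same direction. One of these 13, the letter P with 2 higher and 1 lower of 6, is a shared initial and no gene family.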
